A study of Mus musculus with 112 samples.

Results

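The FoxO, glucocorticoid and metallothionein genes described here are 8 regulatory and stress-response genes: the FoxO factors Foxo1, Foxo3 and Foxo4, the glucocorticoid-responsive factors Klf15, Cebpb and Cebpd, and the metallothioneins Mt1 and Mt2. They were taken by name, with earlier results of these data known, and all 8 were found among the 32544 gene symbols of the count tables. The study placed a single limb of Diversity Outbred mice aged 16 weeks in a cast for 3 weeks and sequenced the gastrocnemius of both limbs. Diversity Outbred mice descend from several inbred founder strains, and each animal carries its own genotype. The libraries form 4 groups of 28: immobilized limbs of males, control limbs of males, immobilized limbs of females and control limbs of females. The right limb was always the immobilized one and the left limb the control, so side and treatment cannot be told apart. The control limb belonged to a mouse that carried a cast on its other limb. Each gene is described first as the immobilized against the control limb within a mouse, then by how far the limbs of a mouse agree.

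FoxO proteins are transcription factors that Akt keeps out of the nucleus by phosphorylation, and in muscle they switch on ubiquitin ligase and autophagy genes when insulin and growth factor signals fall. Their activity is set largely at the protein level, which RNA counts do not measure. Glucocorticoids, the steroid hormones of the adrenal cortex, reach muscle through the blood and act through a nuclear receptor encoded by Nr3c1. Klf15, a Krüppel-like factor that drives amino acid breakdown, is a direct target of that receptor in muscle. Cebpb and Cebpd encode CCAAT/enhancer-binding proteins that respond to glucocorticoids and to inflammatory cytokines. Mt1 and Mt2 encode small cysteine-rich proteins that bind zinc and copper; metals act on them through the factor MTF-1, and glucocorticoids also raise them.

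Total counts ran from 1716485 to 9995936 per library, with a median of 4395118. All 8 genes passed the filter on low counts, as did 11886 genes in all. Their lowest count in any library was 18, for Klf15 in an immobilized limb of a female. In 10 libraries from 10 mice, the level of Acta1, which encodes skeletal muscle actin, was below 50% of the median of all libraries. The control limb of male 52 stood apart even from these, with 3.45 CPM of Acta1 and 8.13 CPM over the 10 skeletal muscle markers together, so the defining markers of the labelled tissue were nearly absent from it. It is among the mice left out wherever those of low Acta1 are left out. In males 15 and 16 the immobilized limb matched the control limb of another mouse better than its own over genes chosen without them; both were kept as labelled. Results that rest on these mice are given with and without them. These are bulk libraries, so fewer cells of a type and less RNA per cell cannot be told apart.

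Mt1 and Mt2 lie close to each other on chromosome 8, and of all pairs among the 8 genes theirs had the highest correlation across mice. Their promoters are shown because the metal response element, the site that MTF-1 recognizes, is their best-known shared feature. The sequences are the 250 bases before and the 50 bases from the annotated start on, from RefSeq on build GRCm38.p6, where 6 of the 8 genes had an entry. Capitals mark matches to the core of the metal response element, TGCACNC or TGCGCNC, read on both strands. The Mt1 window is chr8:94178839-94179138 and the Mt2 window chr8:94172368-94172667, both on the plus strand.
Mt1: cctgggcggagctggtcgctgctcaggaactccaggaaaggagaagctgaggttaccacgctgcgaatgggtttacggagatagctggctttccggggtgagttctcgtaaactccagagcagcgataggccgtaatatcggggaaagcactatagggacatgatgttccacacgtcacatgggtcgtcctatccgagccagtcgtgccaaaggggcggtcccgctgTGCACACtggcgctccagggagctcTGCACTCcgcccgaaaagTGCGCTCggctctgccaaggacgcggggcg
Mt2: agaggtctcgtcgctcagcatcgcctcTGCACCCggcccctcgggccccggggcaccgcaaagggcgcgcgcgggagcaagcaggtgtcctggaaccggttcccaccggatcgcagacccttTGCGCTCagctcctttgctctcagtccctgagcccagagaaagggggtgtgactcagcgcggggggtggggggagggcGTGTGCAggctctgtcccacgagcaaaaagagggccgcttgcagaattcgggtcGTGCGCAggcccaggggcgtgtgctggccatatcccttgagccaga

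The Mt1 window held 3 matches and the Mt2 window 4. Of 32851 promoter windows of the same length, 25.7% held at least 1 match, 1.97% at least 3 and 0.517% at least 4. The windows of Foxo3 and Klf15 held 1 match each. In the Klf15 window, 3 copies of the E-box CACGTG, the site of clock factors among others, were also found, a number that 0.0883% of all windows reached; the metal response core in that window overlaps an E-box. The FoxO element GTAAACA and the glucocorticoid half-site AGAACA were searched on both strands as well and matched none of the 6 windows, against 3.65% and 19% of all windows. A match describes the letters in this window and no more.

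Over both sexes, Mt2 rose 1.52-fold in the immobilized limb, and it was the 1 gene of the 8 that passed the threshold, an edgeR adjusted p of at most 0.05 over all genes tested. Across all genes 19.9% passed in that comparison, so 1 of 8 does not stand above the background. In males alone 0 of the 8 genes passed, against 2.21% of all genes. An unadjusted edgeR p of at most 0.05 was reached in males by 0 of the 8 and by 2022 of 11886 genes. In females alone 0 of the 8 genes passed, against 4.57% of all genes. An unadjusted edgeR p of at most 0.05 was reached in females by 1 of the 8, Mt2, and by 2899 of 11886 genes. DESeq2 and limma voom also called 0 of the 8 in each sex alone. Of 11886 genes, DESeq2 called 576 in males and 1145 in females, and limma voom 454 in males and 755 in females. The male minus female difference of the cast effect passed for 0 of the 8 genes and for 0% of all genes by edgeR, where 194 of all genes and 0 of the 8 had an unadjusted p of at most 0.05.

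Among the FoxO genes, Foxo1 encodes a factor that fasting and glucocorticoids induce in muscle. CPM are read counts relative to a library size adjusted by a TMM scaling factor, and not to the plain total count. In males the lowest, median and highest values of Foxo1 were 17.5, 69.7 and 172 CPM in immobilized limbs. In control limbs of males they were 22.5, 58.7 and 164 CPM. In females they were 21.0, 69.1 and 192 CPM in immobilized limbs, against 20.3, 67.1 and 140.4 CPM in control limbs. The groups overlapped in both sexes, and Foxo1 was higher in the immobilized limb of 36 of 56 mice. Its log2 fold change over both sexes was 0.15 ± 0.07 (SE, 56 mice; 95% interval 0.0071 to 0.30), with an edgeR adjusted p of 0.14. The opposite-strand gene Gm20402 and the same-strand gene Gm38034 overlap Foxo1, and how the counting treated strand is not given in the sources used here.

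Foxo3, a close relative of Foxo1 that drives the ubiquitin ligase gene Fbxo32, had the smallest spread of the limb difference among the 8 genes. The SD of that difference was 0.33 on the log2 scale with sex means removed. Its median absolute difference, 0.2233, was near that of Cebpb, 0.2227. Its lowest, median and highest values were 22.7, 36.1 and 82.9 CPM in immobilized limbs of males, against 15.2, 33.1 and 67.4 CPM in their control limbs. They were 22.8, 44.4 and 89.0 CPM in immobilized limbs of females, against 21.5, 47.8 and 74.3 CPM in their control limbs. The groups overlapped, and the limbs lay within 2-fold of each other in 56 of 56 mice and within 1.5-fold in 52. Its log2 fold change over both sexes was 0.06 ± 0.05 (SE; 95% interval -0.03 to 0.15), with an edgeR adjusted p of 0.40.

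Foxo4, the X-linked FoxO gene, differed from both in the shape of its distribution. Its lowest, median and highest values were 27.6, 166 and 193 CPM in immobilized limbs of males, against 34.5, 164 and 215 CPM in their control limbs. They were 37.8, 142 and 205 CPM in immobilized limbs of females, against 42.6, 164 and 205 CPM in their control limbs. The groups overlapped, with medians nearer to the highest than to the lowest value in every group. In all 10 mice with a library of low Acta1, Foxo4 was lower in that library than in the other limb, by a median of -1.63 and a range of -2.41 to -1.11 on the log2 scale. Its log2 fold change with the cast was -0.12 ± 0.11 (SE; 95% interval -0.33 to 0.09), with an edgeR adjusted p of 0.45.

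Klf15, the driver of amino acid breakdown, came closest to the threshold among the transcription factors. In males its lowest, median and highest values were 3.36, 29.95 and 56.7 CPM in immobilized limbs, against 17.3, 37.0 and 111 CPM in control limbs. In females they were 4.92, 31.8 and 82.0 CPM in immobilized limbs, against 6.75, 42.3 and 124 CPM in control limbs. The medians were lower in the immobilized limbs of both sexes while the ranges overlapped, and 37 of 56 mice had the lower value in the immobilized limb.

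The log2 fold change of Klf15 over both sexes was -0.34 ± 0.13 (SE; 95% interval -0.59 to -0.09), with an edgeR adjusted p of 0.052, just short of the threshold. It was -0.35 ± 0.18 in males and -0.33 ± 0.18 in females. Klf15 was lower in 9 of the 10 low Acta1 libraries than in the other limb, with a median difference of -1.39 on the log2 scale over all 10. The exception was male 52, with 30.5 CPM in its immobilized limb and 43.2 CPM in its control limb, the library where muscle markers were nearly absent. Without those 10 mice it was -0.27 with an edgeR adjusted p of 0.0082, which passed, in a comparison where 3814 genes passed in place of 2371. It also passed without males 15 and 16 (-0.37, edgeR adjusted p = 0.040), without female 26 (-0.39, edgeR adjusted p = 0.0085) and without male 53 (-0.36, edgeR adjusted p = 0.046). Female 26 had the largest difference in the other direction, 70.4 CPM in its immobilized limb and 6.75 CPM in its control limb, a low Acta1 library. Male 35 had the largest difference toward a lower level, 3.36 CPM in its immobilized limb, a low Acta1 library, and 58.9 CPM in its control limb. Without male 35 the log2 fold change was -0.29 (edgeR adjusted p = 0.068). DESeq2 gave an adjusted p of 0.031 and limma voom one of 0.046.

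Cebpb and Cebpd, the C/EBP factors, did not pass with the cast. Cebpb had lowest, median and highest values of 43.3, 103 and 196 CPM in immobilized limbs of males, against 46.9, 103 and 248.5 CPM in their control limbs. In females these were 56.4, 94.7 and 192 CPM in immobilized limbs, against 43.4, 102 and 178 CPM in control limbs. The groups overlapped, it was higher in the immobilized limb of 28 of 56 mice, an even split, and its log2 fold change was 0.02 ± 0.06 (SE; 95% interval -0.09 to 0.13; edgeR adjusted p = 0.85). The opposite-strand gene Tmem189 overlaps Cebpb.

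Cebpd had lowest, median and highest values of 11.0, 44.2 and 114 CPM in immobilized limbs of males, against 11.7, 43.1 and 138 CPM in their control limbs. In females they were 10.4, 44.3 and 108 CPM in immobilized limbs, against 17.3, 45.6 and 119 CPM in control limbs. The groups overlapped, and mouse means spanned 10.7-fold, while the limbs of a mouse lay within 2-fold of each other in 52 of 56 mice. Its log2 fold change was -0.03 ± 0.08 (SE; 95% interval -0.18 to 0.11), with an edgeR adjusted p of 0.79. The opposite-strand gene Spidr overlaps Cebpd.

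The metallothioneins spread more than any other of the 8 genes, both between mice and between limbs. Mt1 had lowest, median and highest values of 11.5, 49.5 and 1326 CPM in immobilized limbs of males, against 8.79, 45.1 and 499 CPM in their control limbs. In females they were 13.2, 77.1 and 310.4 CPM in immobilized limbs, against 6.74, 61.2 and 316 CPM in control limbs. The ranges overlapped in both sexes, with 37 of 56 mice higher in the immobilized limb. The log2 fold change of Mt1 was 0.36 ± 0.18 over both sexes (SE; 95% interval 0.0035 to 0.72), with an edgeR adjusted p of 0.15. Its unadjusted edgeR p was 0.053, short of 0.05, although the interval lies just above 0.

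Mt2 had lowest, median and highest values of 5.39, 55.6 and 1375 CPM in immobilized limbs of males, against 6.95, 30.1 and 713 CPM in their control limbs. In females these values were 7.18, 74.0 and 336 CPM in immobilized limbs, against 6.49, 50.8 and 523 CPM in control limbs. The medians were higher in the immobilized limbs of both sexes, the ranges overlapped, and 39 of 56 mice were higher in the immobilized limb. Over both sexes the log2 fold change was 0.60 ± 0.20 (SE, 56 mice; 95% interval 0.21 to 1.00), with an edgeR adjusted p of 0.028. It was 0.55 ± 0.30 in males (edgeR adjusted p = 0.33) and 0.65 ± 0.28 in females (edgeR adjusted p = 0.14), and the male minus female difference was -0.09 ± 0.40 (SE; 95% interval -0.89 to 0.70). The opposite-strand gene Gm45774 overlaps Mt2.

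The rise of Mt2 was uneven. Single mice lay far out in each direction: male 31 had 1375 CPM in its immobilized limb and 64.3 CPM in its control limb, and male 53 had 54.2 CPM in its immobilized limb and 713 CPM in its control limb. Without male 31 the log2 fold change was 0.54 (edgeR adjusted p = 0.042), and without male 53 it was 0.66 (edgeR adjusted p = 0.011). Within animal numbers 1 to 20 it was 0.81 (edgeR adjusted p = 0.040), within 21 to 40 it was 0.93 (edgeR adjusted p = 0.53) and within 41 to 59 it was -0.03 (edgeR adjusted p = 0.99). The difference between the number ranges was not tested. A fit without the term for each animal gave 0.53 with an edgeR adjusted p of 0.22.

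Markers of other cells also moved with the cast, in a comparison where 9.58% of all genes rose and 10.4% fell. All 8 macrophage markers rose over both sexes, and their summed level had a median of 85.8 CPM in immobilized limbs against 65.7 CPM in control limbs of males (24.3 to 1283 CPM and 17.1 to 220.0 CPM). In females the median sum was 142.5 CPM in immobilized limbs against 75.4 CPM in control limbs (14.6 to 750.1 CPM and 36.6 to 412 CPM). Of 5 Schwann cell markers 4 rose, of 5 fibroblast markers 3 rose and of 5 endothelial markers 3 fell, while 0 of 10 skeletal muscle markers and 0 of 7 adipocyte markers passed by edgeR. No macrophage marker was at 0 in every library of a group. In the 10 low Acta1 libraries Mt2 was higher than in the other limb of 7 mice and lower in 3, with a median of 0.99 on the log2 scale. The largest of these differences was that of male 52, with 56.2 CPM in its immobilized limb and 367 CPM in its control limb. Without those 10 mice the log2 fold change of Mt2 with the cast was 0.66 (edgeR adjusted p = 0.018). The part of macrophages in the rise of Mt2 was not tested.

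**Figure D1:**
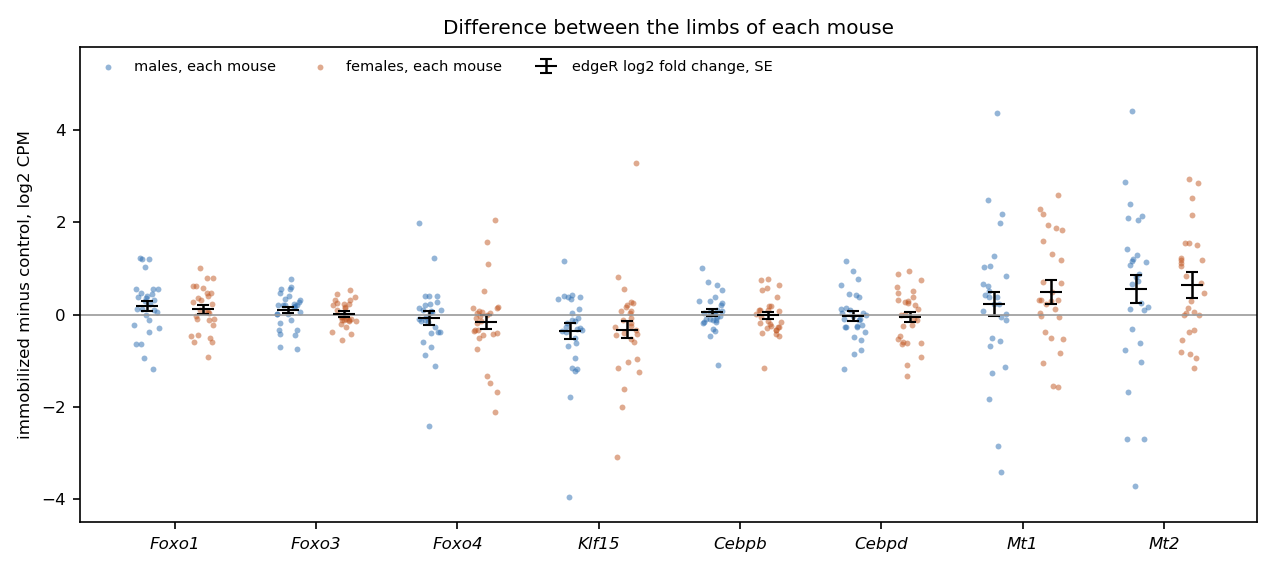
Difference between the immobilized and the control limb of each mouse in log2 CPM, for the 8 genes, with males left of females; black bars are the edgeR log2 fold changes with their SE. The points of Mt1 and Mt2 spread from about -3.71 to 4.41, those of Foxo3 from -0.74 to 0.78, and the bars are farthest from 0 for Mt2 and Klf15 in both sexes and for Mt1 in females.

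Between the sexes 1 of the 8 genes passed. Foxo3 was lower in males than in females in immobilized limbs, at -0.41 ± 0.12 in log2 fold change (SE, 28 mice per sex; edgeR adjusted p = 0.029), which is 0.75-fold. It was also lower in males in control limbs, at -0.47 ± 0.13 (SE; edgeR adjusted p = 0.036), which is 0.72-fold. Both limbs come from the same mice, so these are not independent tests. Of all genes, 4.86% passed between the sexes in immobilized limbs and 1.8% in control limbs, and the other 7 genes did not pass in either limb. With the range of animal numbers as a term Foxo3 still passed (edgeR adjusted p = 0.012 in immobilized limbs and 0.0097 in control limbs), while limma voom placed it just short of the threshold, at adjusted p-values of 0.052 in immobilized limbs and 0.060 in control limbs.

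The limbs of a mouse were then set against each other. For each gene the log2 CPM of the immobilized limb was correlated with that of the control limb over 56 mice, after removing the mean of each sex and limb. In 6 of the 8 genes mice that were high in the immobilized limb were high in the control limb too, with an r above 0 and a permutation adjusted p of at most 0.05; of all genes tested 7.74% reached this, and the median r of all genes was 0.073. These 6 were Foxo1, Foxo3, Cebpb, Cebpd, Mt1 and Mt2. The same 6 passed by Spearman's rho, against 9.97% of all genes. Foxo4 and Klf15 did not reach it.

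Foxo1 had a Pearson r of 0.77 and a Spearman rho of 0.73. Foxo3 came with an r of 0.75 and a rho of 0.74, Cebpd with an r of 0.75 and a rho of 0.75, and Cebpb with an r of 0.69 and a rho of 0.56. For these 4 genes the permutation p of r was 1e-05, the smallest that 100000 resamples can give, and that of rho was 1e-05, or 2e-05 for Cebpb; the permutation adjusted p of r over all genes was 0.00038. Each lay above 98.3% of all genes or more in r, with Cebpb the lowest of them. Without the 2 mice farthest from the median of the control limb r was 0.76 for Foxo1, 0.72 for Foxo3, 0.70 for Cebpd and 0.66 for Cebpb, so the relation did not rest on those mice. Without the mice of low Acta1 the r of the 6 genes was 0.59 to 0.81, and without males 15 and 16 it was 0.52 to 0.79; all 6 passed in both (permutation adjusted p of 0.0016 or less).

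The metallothioneins had the lowest r of the 6. Mt2 had an r of 0.57 (permutation p = 2e-05, adjusted p = 0.00065) and a rho of 0.61 (permutation p = 2e-05). Mt1 had an r of 0.52 (permutation p = 6e-05, adjusted p = 0.0017) and a rho of 0.58 (permutation p = 2e-05). Without the 2 mice farthest from the median, r was 0.60 for Mt2 and 0.55 for Mt1. Mouse means of Mt2 spanned 46.0-fold and those of Mt1 27.8-fold, against 7.69-fold for Foxo1 and 4.29-fold for Foxo3. The limbs of a mouse lay within 2-fold of each other in 26 of 56 mice for Mt2 and in 32 for Mt1.

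Klf15 and Foxo4 did not pass over all mice. Klf15 had an r of 0.083 (permutation p = 0.56, adjusted p = 0.86) and a rho of 0.30 (permutation p = 0.024, adjusted p = 0.14) over all 56 mice. Over the 46 mice without a low Acta1 library its r was 0.49 (permutation p = 0.00049, adjusted p = 0.0061) and its rho 0.47 (permutation p = 0.00095, adjusted p = 0.011), which passed; there 16.3% of all genes reached the threshold and the median r of all genes was 0.18. Foxo4 had an r of -0.068 (permutation p = 0.63, adjusted p = 0.89) and a rho of 0.024 (permutation p = 0.86) over 56 mice. Over the 46 mice its r was -0.11 (permutation p = 0.48, adjusted p = 0.68), which did not pass.

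**Figure D2:**
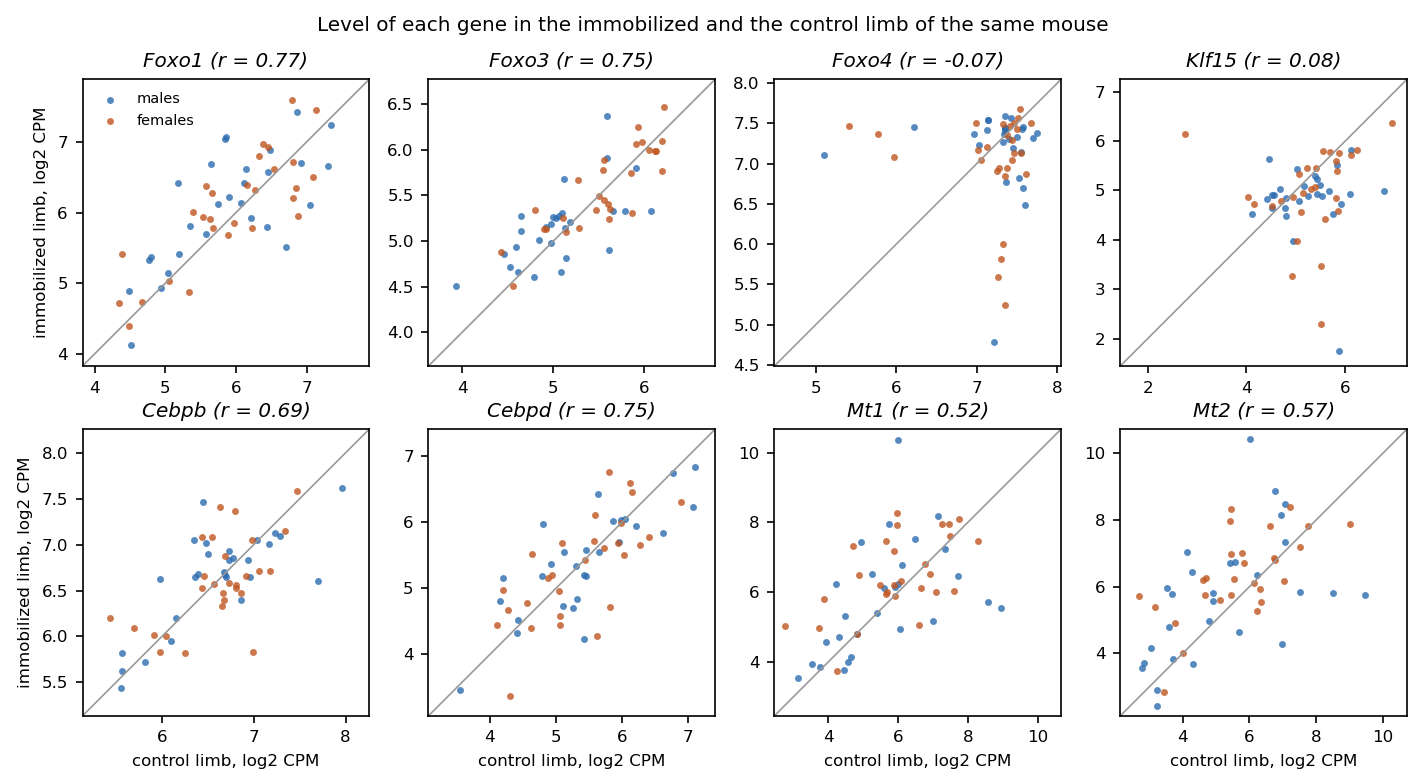
Level of each gene in the immobilized limb (vertical axis, log2 CPM) against the control limb (horizontal axis, log2 CPM) of the same mouse, males in blue and females in orange, with the line of equal levels; r is given after removing the mean of each sex and limb. Points of Foxo1, Foxo3, Cebpb and Cebpd follow the line (r of 0.69 to 0.77), those of Mt1 and Mt2 scatter more widely around it, and those of Foxo4 form a cluster with a tail along each axis.

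**Figure D3:**
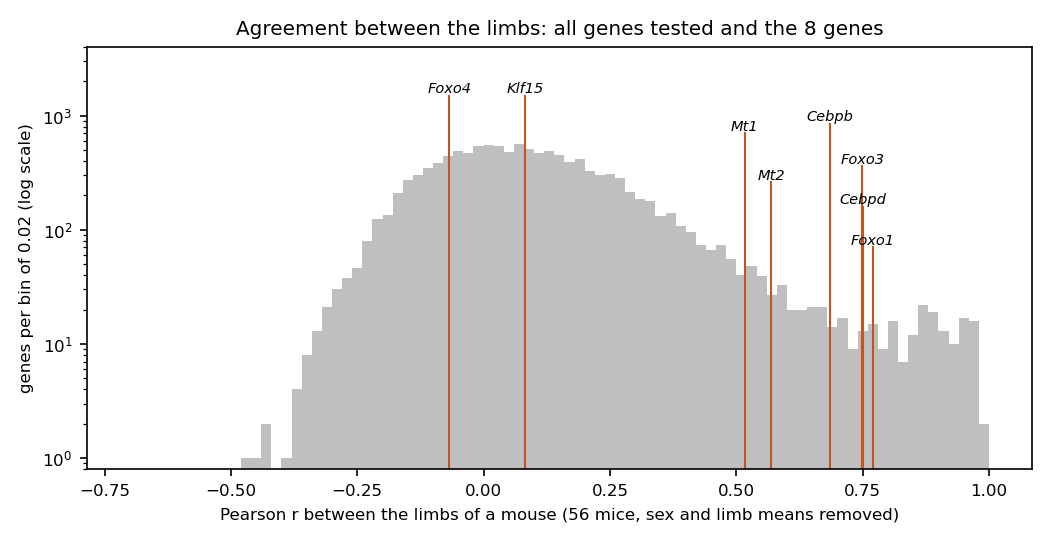
Number of genes (log scale) by the Pearson r between the limbs of a mouse, for 11886 genes over 56 mice, with the 8 genes marked by lines. Klf15 lies near the median of 0.073, Foxo4 below it at -0.068, and the other 6 lie in its right tail between 0.52 and 0.77.

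In the sexes apart, the same 4 factors passed in both. In males r was 0.72 for Foxo1, 0.64 for Foxo3, 0.75 for Cebpb and 0.80 for Cebpd (permutation adjusted p = 0.00080 for Foxo1, Cebpb and Cebpd and 0.010 for Foxo3). In females r was 0.82 for Foxo1, 0.85 for Foxo3, 0.60 for Cebpb and 0.70 for Cebpd (permutation adjusted p of 0.00077 for Foxo1 and Foxo3, 0.029 for Cebpb and 0.0024 for Cebpd). Of all genes 5.08% passed in males and 3.21% in females. By Spearman's rho, Cebpb in females did not pass (rho = 0.51, permutation adjusted p = 0.14), while the other 3 factors in females and all 4 in males did; of all genes 5.7% passed by rho in males and 2.78% in females. Mt1 and Mt2 passed in females by r, with an r of 0.58 and 0.65 (permutation adjusted p = 0.041 and 0.011), and had a rho of 0.57 and 0.59 (permutation adjusted p = 0.057 and 0.046). In males their r was 0.48 and 0.53 (permutation adjusted p = 0.11 and 0.064), and their rho was 0.64 and 0.59 (permutation adjusted p = 0.011 and 0.027). Whether the sexes differ in agreement was not tested.

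Levels were also set out by ranges of animal numbers, which the labels do not call batches; differences between the ranges were not tested. The median of the mouse means of Foxo1 was 34.4 CPM in numbers 1 to 20, 95.3 CPM in 21 to 40 and 73.5 CPM in 41 to 59. For Cebpd these medians were 29.8, 40.6 and 62.5 CPM, and for Mt2 28.1, 74.9 and 76.6 CPM. Foxo4 differed least, at 164, 154 and 148.5 CPM. With the mean of each sex, limb and number range removed, the limbs still agreed in the same 6 genes, with an r of 0.64 for Foxo1, 0.65 for Foxo3, 0.61 for Cebpb, 0.67 for Cebpd, 0.45 for Mt1 and 0.49 for Mt2. All 6 passed (permutation adjusted p of 0.016 or less, the highest for Mt1), against 5.97% of all genes.

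**Figure D4:**
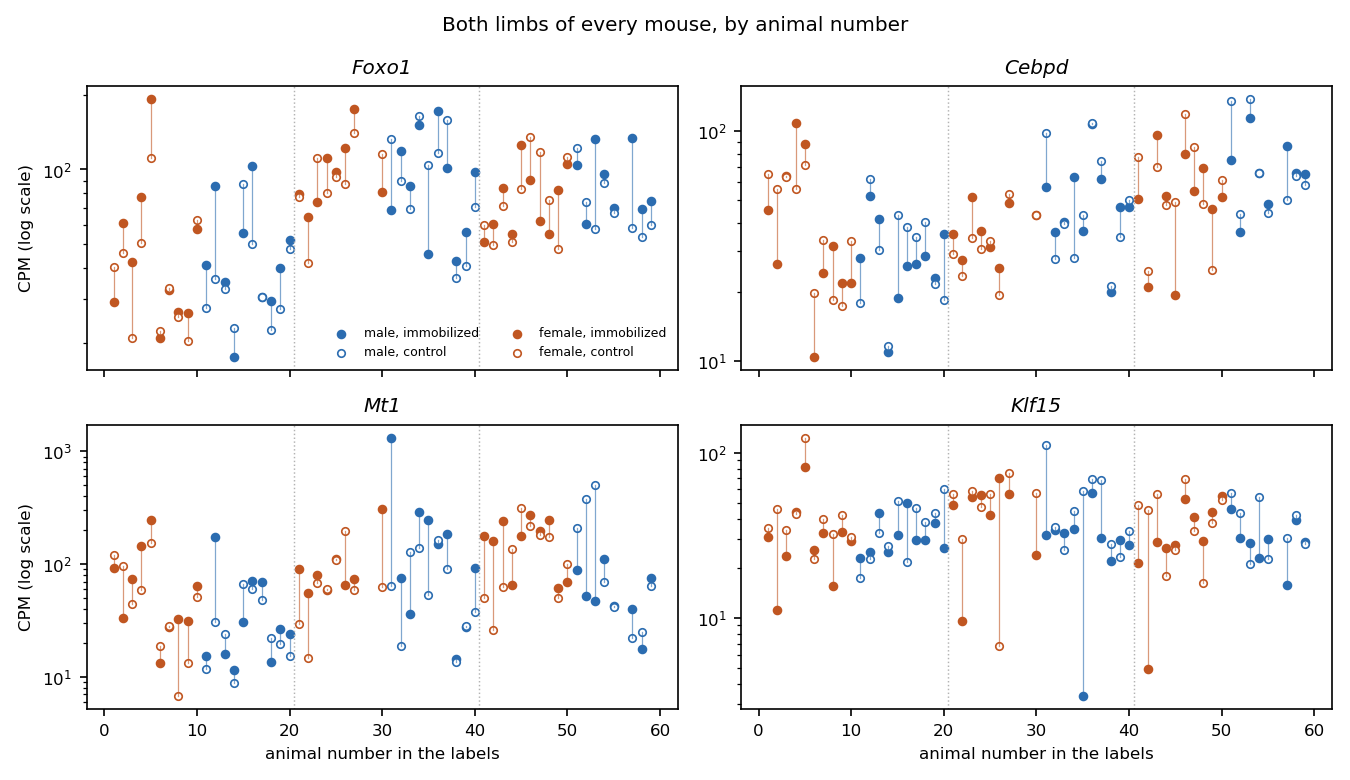
CPM (log scale) of Foxo1, Cebpd, Mt1 and Klf15 in both limbs of every mouse against the animal number in the labels, with a line joining the limbs of a mouse and dotted lines between the number ranges. Foxo1 is lowest in most mice numbered 1 to 20 (median 34.4 CPM), the limbs of a mouse sit close together for Foxo1 and Cebpd, and single limbs stand far apart for Mt1 and Klf15.

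Both limbs of a mouse shared the animal, its genotype and, in all 56 mice, neighbouring library numbers in the labels, and these cannot be told apart as sources of agreement. Some values bear on the libraries themselves. The total count gave a weak correlation between limbs (r = 0.24, permutation p = 0.084; rho = 0.20, permutation p = 0.15). The summed skeletal muscle markers gave an r of -0.042 (permutation p = 0.62; rho = -0.089, permutation p = 0.50), and those of macrophages an r of 0.090 (permutation p = 0.51; rho = 0.16, permutation p = 0.24). The summed Schwann cell markers gave an r of 0.24 (permutation p = 0.075; rho = 0.27, permutation p = 0.049). The summed fibroblast markers had an r of 0.24 as well (permutation p = 0.084; rho = 0.26, permutation p = 0.055), and 2 of the 5 fibroblast markers agreed one by one, Dcn at an r of 0.59 and Pdgfra at 0.45 (permutation adjusted p = 0.00038 and 0.011). The part of fibroblasts in the agreement of the 6 genes was not tested. These p-values of the sums are not adjusted for the number of relations computed.

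Lists of genes from the same pathways were described in the same way. The lists, like the 8 genes, were chosen with earlier results of these data known, so their counts are descriptions. Of 24 genes known as glucocorticoid targets, 15 agreed between limbs against 7.74% of all genes, with a median r of 0.47 against 0.073. Fkbp5, a co-chaperone of the glucocorticoid receptor, had an r of 0.72, Per1, a clock gene with a glucocorticoid response element, one of 0.79, Tsc22d3, which encodes the glucocorticoid-induced leucine zipper, one of 0.57, and Ddit4, an inhibitor of mTOR signalling, one of 0.83 (permutation adjusted p = 0.00038 each). With the cast 1 of the 24 rose and 4 fell, where 9.58% of all genes rose and 10.4% fell. Fkbp5 (-0.06 ± 0.08), Per1 (0.01 ± 0.07) and Tsc22d3 (0.12 ± 0.07, log2 fold change ± SE) did not pass. Those that fell were Zbtb16, Klf9, Nfil3 and Rgcc. Zbtb16, a zinc finger factor strongly induced by steroids, stood at -0.45 ± 0.15 on the log2 scale (edgeR adjusted p = 0.024). Between limbs Zbtb16 (r = 0.20, permutation adjusted p = 0.50) and Klf9 (r = -0.15, permutation adjusted p = 0.69) did not pass. Nfil3 (r = 0.66, permutation adjusted p = 0.00038) and Rgcc (r = 0.52, permutation adjusted p = 0.0032) did. The gene that rose was Lcn2, an acute phase protein, at 0.82 ± 0.30 (edgeR adjusted p = 0.045). Nr3c1, the receptor itself, did not pass between limbs (r = -0.081, permutation adjusted p = 0.86) or with the cast (-0.19 ± 0.09, edgeR adjusted p = 0.12).

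Of 16 genes of the clock and its output, 11 agreed between limbs against 7.74% of all genes, with a median r of 0.49. Dbp, a factor under direct control of the clock, reached an r of 0.80 and Arntl, a core clock activator, one of 0.80 (permutation adjusted p = 0.00038 each). With the cast 1 of the 16 fell, where 10.4% of all genes fell: Cry1, a clock repressor, at -0.23 ± 0.06 (SE; edgeR adjusted p = 0.0090). Per1 and Cry2 are on both lists.

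Of 30 FoxO target genes, 3 rose and 9 fell over both sexes, where 9.58% of all genes rose and 10.4% fell, and their median log2 fold change was -0.08 against 0.0055 for all genes. The 3 that rose were Cdkn1a, a cell cycle inhibitor (0.43 ± 0.10, edgeR adjusted p = 0.0017), Gadd45a, a growth arrest gene of denervated muscle (0.54 ± 0.16, edgeR adjusted p = 0.013), and Ctsl, a lysosomal protease (0.26 ± 0.08, edgeR adjusted p = 0.019). Those that fell included Gabarapl1, an autophagy gene (-0.45 ± 0.09, edgeR adjusted p = 0.00067), Cat, encoding catalase (-0.54 ± 0.11, edgeR adjusted p = 0.00035), Insr, the insulin receptor (-0.31 ± 0.07, edgeR adjusted p = 0.0023), and Pdk4, a brake on glucose oxidation (-0.42 ± 0.14, edgeR adjusted p = 0.029). The muscle ubiquitin ligases Fbxo32 (-0.18 ± 0.16, edgeR adjusted p = 0.44) and Trim63 (-0.10 ± 0.20, edgeR adjusted p = 0.76) did not pass, while Fbxo30, another ubiquitin ligase gene of muscle, fell (-0.29 ± 0.11, edgeR adjusted p = 0.0498). Between limbs 3 of the 30 agreed, where 7.74% of all genes did. These were Sesn1, Irs2 and Pdk4, with r of 0.44, 0.49 and 0.50 (permutation adjusted p = 0.013, 0.0042 and 0.0034). Without the mice of low Acta1, 14 of the 30 agreed, where 16.3% of all genes did, and 20 of the 24 glucocorticoid targets.

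Other lists around the 8 genes were counted beside all genes, of which 9.58% rose, 10.4% fell and 7.74% agreed between limbs. Of 18 kinases and regulators upstream of FoxO, 1 rose and 5 fell, among them Ep300 (-0.27 ± 0.06, edgeR adjusted p = 0.0013) and Prkaa1, a catalytic subunit of AMP-activated kinase (-0.28 ± 0.07, edgeR adjusted p = 0.0027). Of 12 amino acid breakdown genes tied to Klf15, 0 rose and 4 fell, with Dbt, a subunit of the branched-chain keto acid dehydrogenase, the clearest at -0.54 ± 0.08 (edgeR adjusted p = 3.0e-06). Of 15 cytokine and acute phase genes, 2 rose, Serpina3n (1.32 ± 0.28, edgeR adjusted p = 0.00088) and Lcn2, and 1 fell, Lifr (-0.29 ± 0.08, edgeR adjusted p = 0.0063). Of 11 other C/EBP and KLF factors, 0 rose and 2 fell, Cebpg (-0.30 ± 0.05, edgeR adjusted p = 4.6e-05) and Ddit3 (-0.36 ± 0.09, edgeR adjusted p = 0.0059), and 4 agreed between limbs, with Klf6 the highest at an r of 0.63.

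Of 20 metal-handling genes, 3 rose (Mt3, Slc39a1 and Ftl1) and 2 fell (Tfrc and Mtf1). Of all genes 9.58% rose and 10.4% fell. Mt3, a metallothionein best known from brain, was at 0.91 ± 0.22 in log2 fold change ± SE (edgeR adjusted p = 0.0026), while Mtf1, which encodes the metal sensor, was at -0.17 ± 0.06 (edgeR adjusted p = 0.033). Tfrc, the transferrin receptor, was at -0.58 ± 0.13 (edgeR adjusted p = 0.0019). The zinc exporter Slc30a1, like Mt1 and Mt2 a target of MTF-1, was at 0.15 ± 0.07 (edgeR adjusted p = 0.13). Between limbs 2 of the 20 agreed, where 7.74% of all genes did. These were Ftl1 with an r of 0.80 (permutation adjusted p = 0.00065) and Slc30a1 with an r of 0.42 (permutation adjusted p = 0.030). Mtf1 (r = 0.21, permutation adjusted p = 0.45) and Mt3 (r = 0.14, permutation adjusted p = 0.69) did not pass between limbs. The NRF2 list of 9 tested oxidative stress genes also held Nfe2l2, which encodes NRF2 itself, and its repressor Keap1. In this list 1 rose, Hmox1 (0.60 ± 0.20, edgeR adjusted p = 0.029), and 2 fell. Those that fell were Nfe2l2 (-0.20 ± 0.06, edgeR adjusted p = 0.0076) and Txnrd1 (-0.27 ± 0.07, edgeR adjusted p = 0.0085). A list of 8 tested genes held steroid receptors, their chaperones and enzymes, and also Ncoa2 and the clock repressor Nr1d1. Of these 0 passed with the cast, where 19.9% of all genes did. Between limbs 1 agreed, where 7.74% of all genes did. It was Nr1d1, which is also on the clock list and is not a steroid receptor, chaperone or enzyme gene.

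The 8 genes were also set against each other across mice, using the mean of both limbs. Mt1 and Mt2 ran almost in parallel, with a Spearman rho of 0.97 and a Pearson r of 0.97 (permutation p = 1e-05 for both). No stretch of 31 bases is shared between their transcripts. Foxo1 and Foxo3 had a rho of 0.79 and an r of 0.76, and Cebpb and Cebpd a rho of 0.76 and an r of 0.80 (permutation p = 1e-05 for all 4). Foxo1 also ran with Mt2 (rho = 0.73, r = 0.75) and with Cebpb (rho = 0.66, r = 0.66; permutation p = 1e-05 for all 4). The permutation adjusted p of rho was 0.0018 or less for these 5 pairs. Without the 2 mice farthest from the median of the first gene, r was 0.97 for Mt1 with Mt2, 0.76 for Foxo1 with Foxo3, 0.78 for Cebpb with Cebpd, 0.71 for Foxo1 with Mt2 and 0.61 for Foxo1 with Cebpb.

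Of the 28 pairs, 18 passed with a rho above 0 after adjustment over all genes set against the first of each pair, and 0 passed below 0. Of all genes, 3.58% passed with a rho above 0 with Foxo1, 2.05% with Foxo3, 25.3% with Foxo4 and 11.6% with Klf15. With Cebpb it was 2.39%, with Cebpd 1.63%, with Mt1 4.27% and with Mt2 4.34%. Foxo4 passed with Klf15 alone (rho = 0.43, permutation p = 0.0016, adjusted p = 0.0050; r = 0.54, permutation p = 1e-05). Without the mice of low Acta1 that rho was 0.067. Foxo4 with Acta1 had a rho of 0.51 across all mice (permutation adjusted p = 0.00053), 0.13 without the mice of low Acta1 (permutation adjusted p = 0.69) and -0.10 across limbs (permutation adjusted p = 0.74).

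With the mean of each number range removed, 15 of the 28 pairs passed with a rho above 0. Those lost were Foxo3 with Cebpb, Mt1 and Mt2 (permutation adjusted p = 0.17, 0.072 and 0.059), and Foxo1 with Foxo3 had a rho of 0.56 (permutation adjusted p = 0.013). In that setting 0.673% of all genes passed with Foxo1, 0.109% with Foxo3, 25.5% with Foxo4, 14.3% with Klf15, 0.858% with Cebpb, 0.446% with Cebpd and 0.816% with Mt1. Without the mice of low Acta1, 17 of the 28 pairs passed, where 6.13% of all genes passed with Foxo1, 3.88% with Foxo3, 0.799% with Foxo4, 0.867% with Klf15, 2.71% with Cebpb, 3.81% with Cebpd and 3.05% with Mt1. Taking each gene from 1 limb and its partner from the other limb of the mouse, 16 of the 28 pairs passed with a rho above 0. Of all genes, 2.41% passed in this way with Foxo1, 1.42% with Foxo3, 4.07% with Cebpb, 1.59% with Cebpd and 2.03% with Mt1, and 0% with Foxo4 or Klf15. The 16 pairs still include Foxo1 with Klf15 (rho = 0.35, permutation adjusted p = 0.029) and Foxo3 with Klf15 (rho = 0.37, permutation adjusted p = 0.025). Each pair was adjusted over the genes set against its first gene, so these passed for Foxo1 and Foxo3 but not for Klf15. Across limbs the rho was 0.60 for Mt1 with Mt2, 0.62 for Foxo1 with Foxo3, 0.57 for Cebpb with Cebpd, 0.62 for Foxo1 with Mt2 and -0.03 for Foxo4 with Klf15.

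**Figure D5:**
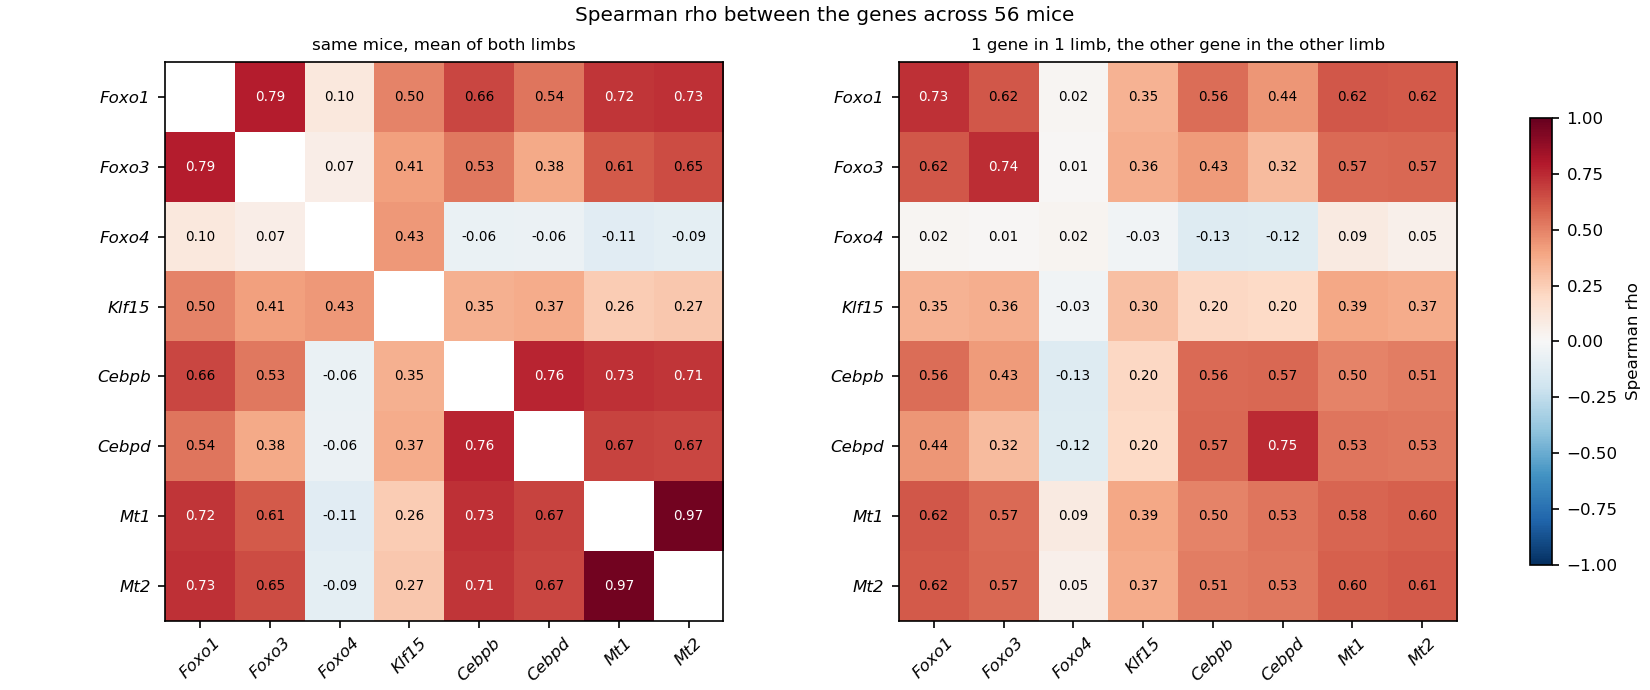
Spearman rho between the 8 genes over 56 mice, on the left for the mean of both limbs and on the right with 1 gene read in 1 limb and the other gene in the other limb; the diagonal on the right is each gene with itself across limbs. All 15 pairs among Foxo1, Foxo3, Cebpb, Cebpd, Mt1 and Mt2 are above 0 in both panels, the row of Foxo4 stays near 0 except with Klf15 on the left (0.43).

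Outside the 8, the genes most alike to each one across mice were picked by their rho, which is therefore a description. For Foxo1 they were Slc7a8, a transporter of neutral amino acids (0.87), Wbp1l, Doc2b, Aff1 and the kinase Map3k6 (0.78 to 0.81). For Foxo3 they were Slc7a8 (0.81), Prickle3, Fkbp5 (0.76), Kdm4a and Aff1. Slc7a8 rose with the cast, at 0.39 ± 0.09 in log2 fold change ± SE (edgeR adjusted p = 0.0030). For Mt1 and Mt2 the closest was Map3k6 (0.85 with Mt1 and 0.88 with Mt2), followed by the bZIP factor Maff, Adamts9 and Spsb1 for both, with Fosl2 for Mt1 and Slc7a8 for Mt2.

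For Cebpb the most alike genes were Per1 (0.76), the glucocorticoid-responsive Fam107a (0.75), Klf6, Slc10a6 and Lrrc8a. For Cebpd they were Errfi1, an inhibitor of the EGF receptor (0.78), Irf2bp2, AI607873, Gadd45g and Arrdc3. For Klf15 they were Klhl38, Mn1, Gucd1, Klf9 and the potassium channel Kcna5 (0.73 to 0.76), and for Foxo4 Atg9a and Pink1 of autophagy and mitophagy (0.85 and 0.81), the proteasome gene Psmd1, Tmem161a and D17Wsu92e. With the mice of low Acta1 left out, the 5 genes named for Foxo4 had a rho of 0.61 to 0.70 with it. The 5 named for Klf15 then had a rho of 0.55 to 0.74, the lowest for Klf9. Read across limbs, the 5 genes nearest to Klf15 had a rho of 0.15 to 0.24 and those nearest to Foxo4 one of -0.046 to 0.14. For the other 6 genes the listed neighbours had a rho of 0.3985 to 0.72 across limbs, the lowest being Fosl2 with Mt1 and the highest Map3k6 with Mt2.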

How the data were processed

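The deposited tables hold raw read counts per gene symbol, whole numbers not normalized by the authors, in 1 table per sex. Per the labels' protocols, stranded total RNA libraries were made after removal of ribosomal RNA; which aligner, counter and build they used is not given in the sources used here. Groups and animal numbers came from the labels. The limbs of a number were taken as 1 mouse, as labelled. Deviations from the group mean correlated at a median of 0.364 within mice and 0.00661 between mice, over 0.1 in 45 of 56. Over 150 genes 54 of 56 matched their own limb best, and males 15 and 16 did not.

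Genes kept by filterByExpr were scaled by TMM and fitted with edgeR 4.0.16 (quasi-likelihood, Benjamini-Hochberg, threshold 0.05) in R 4.3.3. All 112 libraries entered 1 fit with a term per animal and 1 immobilization effect per sex; sex was tested within each limb. Limb agreement used log2 CPM (prior count 2) with two-sided permutations of mice within sex. Intervals of 95% come from the SE of the fit and a normal distribution, so they can exclude 0 where the unadjusted edgeR p is above 0.05. The fits were tested on simulated data. There a 1.5-fold change with the cast was called in 69 of 100 genes in males, 73 in females and 82 over both sexes. No simulated gene differed in the male minus female difference of the cast effect, so the power of that comparison was not tested. The comparison of the sexes in immobilized limbs was not simulated. Reads carry no molecular identifiers, and the depth of 1716485 to 9995936 counts per library limits precision for low genes. Alternatives included DESeq2 1.42.0 and limma 3.58.1. Named are the 8 genes, a set of reference genes (such as Nr3c1, Fkbp5 and Acta1), the 5 most alike to each gene, and from each list up to 4 genes of smallest p in the cast comparison and in limb agreement. Further genes are named where a count was 5 or fewer, chosen after their values were seen. The genes and lists were chosen with earlier results of these data known.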

Additional observations from a re-analysis of the deposited data

How the results depend on the processing

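The rise of Mt2 over both sexes held in direction in every setting except among animal numbers 41 to 59, where its log2 fold change was -0.035; the cause was not tested. With no replicate block, which drops the pairing of limbs, it was 0.53 with an edgeR adjusted p of 0.215, and in the males 589 genes passed in place of 263 and 1 gene in the male minus female difference in place of 0. Of the 8 genes, 2 passed over both sexes in place of 1 under DESeq2, limma voom, without the low Acta1 mice, without males 15 and 16, without male 53 and without female 26, and 0 among numbers 21 to 40 or 41 to 59. Of all genes, 2371 of 11886 passed in the main fit, 2962 of 11886 under DESeq2 and 2637 of 11886 under limma voom. It was 3814 of 11731 without the low Acta1 mice and 2349 of 11911 without males 15 and 16. Without male 53 it was 2300 of 11926, and without female 26 it was 3410 of 11906. Among numbers 21 to 40 it was 1 of 11881, and among 41 to 59 it was 2 of 12186. The counts of the 8 genes were not tested against these. Leaving out single mice was chosen after seeing the data.

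Counts of all genes moved more. In females 543 genes passed, against 145 with no filter on low counts, 1145 with DESeq2, 2017 without the low Acta1 mice, 2207 without female 26, and 0 among numbers 21 to 40 and 0 among 41 to 59. In males 263 passed, against 109 with no filter, 576 with DESeq2, 454 with limma voom, 1071 without the low Acta1 mice, 164 without male 31, 155 without male 35, 430 without female 26, and 6, 0 and 1 among numbers 1 to 20, 21 to 40 and 41 to 59. Over both sexes 2371 passed, against 3814 without the low Acta1 mice and 1108, 1 and 2 in those number ranges, which hold fewer mice. Between the sexes 214 passed in control limbs, against 836 with no filter, 118 with limma voom (0 of the 8 genes) and 370 without the low Acta1 mice. In immobilized limbs 578 passed, against 1743 with no filter, 171 with limma voom (0 of the 8 genes) and 212 without the low Acta1 mice. Between limbs 923 genes passed in either direction, against 1943 without the low Acta1 mice. The lowest counts of any of the 8 genes were 18 for Klf15 and 20 for Mt2, in single libraries.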
